A study of Mus musculus with 36 samples.

Results

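Cd22, Cd33, Siglec1 and Siglece, 4 genes of the sialic acid-binding immunoglobulin-like lectin (Siglec) family, were followed across mouse hippocampal RNA. They were selected by gene symbol from a table of 36172 genes, and all 4 were found. The table holds 36 libraries of polyA RNA from Cx3cr1-NuTRAP mice, in which tamoxifen activates a cre recombinase expressed from the promoter of the microglia and macrophage gene Cx3cr1. The recombined cells carry GFP on their ribosomes, so that their translating RNA can be pulled down with an anti-GFP antibody (translating ribosome affinity purification, TRAP). Input is the whole-tissue homogenate set aside before the pulldown. Every group, young controls included, carried the same genotype and received tamoxifen, at an age the labels call early or late. Young early-induced input came from 10 animals of 6 months (5 females, 5 males), old early-induced input from 12 animals of 22 months (7 females, 5 males), and old late-induced input from 7 animals of 22 months (5 females, 2 males). Each of these 7 old late-induced animals also gave 1 TRAP library, while TRAP of early-induced animals was not analysed here. The study asked how the age at induction bears on the isolation of microglial RNA and on the detection of age-related changes.

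Siglecs are cell-surface receptors that bind sialic acid, the sugar that caps many glycoproteins and glycolipids. Most of them carry immunoreceptor tyrosine-based inhibitory motifs that recruit phosphatases such as SHP-1 (Ptpn6) and dampen activation and phagocytosis, while others pair with the activating adaptor DAP12 (Tyrobp). Cd22 is best known as an inhibitory co-receptor of B cells and is also made by microglia, Cd33 is a myeloid receptor linked to Alzheimer's disease risk in human genetics, Siglece encodes an inhibitory receptor of mouse myeloid cells, and Siglec1 (sialoadhesin, CD169) is an adhesion receptor of macrophages without an inhibitory motif.

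In the coordinates of the deposited table, whose build is mm10 per the submitters' processing notes, Cd22 (identifier 12483) lies at chr7:30865404-30880342, Cd33 (12489) at chr7:43527456-43533171, Siglece (83382) at chr7:43651070-43660161 and Siglec1 (20612) at chr2:131069220-131086765, all on the minus strand. No other gene of the table overlapped any of them. Cd33 and Siglece belong to a group of 4 Siglec genes, with Siglec5 (the table's symbol for the gene also called Siglecf) and Siglecg, within 308.8 kb of chromosome 7. Mag, the myelin member of the family, lies 18.84 kb from Cd22.

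The promoter windows of the members are shown because the 4 transcripts were enriched together in the pulldown described below. RefSeq (GRCm38.p6) gave windows of 300 bases, from 250 before to 50 after the start, for Cd22, Cd33 and Siglece, so 3 of 4 members matched. They are written 5′ to 3′ along the minus strand, and capitals mark GAGGAA or its reverse complement TTCCTC, a core bound by the myeloid factor PU.1.
Cd22, chr7:30878979-30879278: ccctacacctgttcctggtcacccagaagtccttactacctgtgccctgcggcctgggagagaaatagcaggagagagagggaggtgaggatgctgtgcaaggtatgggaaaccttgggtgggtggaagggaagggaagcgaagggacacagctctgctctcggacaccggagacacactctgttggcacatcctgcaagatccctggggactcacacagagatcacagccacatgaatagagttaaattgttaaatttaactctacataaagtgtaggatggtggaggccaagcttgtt
Cd33, chr7:43533122-43533421: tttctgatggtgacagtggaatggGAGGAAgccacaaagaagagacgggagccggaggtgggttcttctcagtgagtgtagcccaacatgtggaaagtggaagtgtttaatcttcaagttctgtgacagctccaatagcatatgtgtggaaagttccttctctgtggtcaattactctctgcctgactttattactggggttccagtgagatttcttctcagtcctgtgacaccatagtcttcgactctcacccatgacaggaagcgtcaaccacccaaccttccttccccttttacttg
Siglece, chr7:43660112-43660411: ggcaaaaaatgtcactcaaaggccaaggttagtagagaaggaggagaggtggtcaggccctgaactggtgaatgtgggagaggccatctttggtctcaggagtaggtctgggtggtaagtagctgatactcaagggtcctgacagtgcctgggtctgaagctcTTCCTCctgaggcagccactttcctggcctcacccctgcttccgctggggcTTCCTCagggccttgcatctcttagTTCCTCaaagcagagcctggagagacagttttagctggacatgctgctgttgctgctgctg
The window of Cd22 lay inside the gene span of the table, because its RefSeq start is downstream of the outermost one. GAGGAA, searched on both strands, occurred 3 times in the Siglece window, once in the Cd33 window and 0 times in the Cd22 window. It occurred in 28.3% of 32851 RefSeq promoter windows of this length, so its presence sets no member apart. The interferon-stimulated response element core, read as GAAA, any 2 bases and GAAA and searched in the same way, was in none of the 3 windows and in 3.44% of all windows. These matches describe letters and not binding.

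Library totals ran from 12.9 to 20.4 M estimated counts over the 36 libraries. Levels are given as CPM, counts scaled to a common library total after TMM normalization, a trimmed-mean correction for composition. The labelled tissue was checked by marker lists: all 6 neuron, 6 astrocyte and 8 oligodendrocyte markers were detected in each group, and 17 microglia markers summed to 622 to 1285 CPM in inputs and 15863 to 25450 CPM in TRAP. In TRAP against input, 17 of 17 microglia, 10 of 10 border macrophage and 6 of 6 endothelial markers were called higher, while 8 of 8 oligodendrocyte, 5 of 6 astrocyte, 2 of 6 neuron and 3 of 3 red cell markers were called lower. Of the monocyte markers 3 of 3 tested were higher, and the 1 tested T cell marker was not called. Among all genes tested, 30.4% were called higher and 28.8% lower. The border macrophage marker Clec4n and the monocyte marker Ccr2 reached at most 0.401 and 0.481 CPM in old late-induced input. Both were under the minimum of the filter on low counts there and were tested through their level in TRAP, which limits these 2 calls. The S numbers in the sample titles run in separate blocks for young, old early-induced and old late-induced animals, so whatever they record and the groups cannot be told apart.

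The pulldown from late-induced old animals was enriched for all 4 transcripts, by 12.4 to 20.5 times. Cd22 had 0.537, 0.926, 1.91, 2.92, 2.81, 1.66 and 1.20 CPM in the inputs of animals 1 to 7 and 17.6, 15.9, 63.2, 38.7, 59.5, 29.6 and 22.5 CPM in their TRAP libraries. Every TRAP library was above every input, and the TRAP libraries of males 1 and 2 were the lowest. Its log2 fold change was 4.36 ± 0.26 (SE), a fold of 20.5, with an adjusted p of 2.76e-10 in edgeR's quasi-likelihood test with Benjamini-Hochberg adjustment over 14596 genes. Cd33, the most abundant of the 4 per library, ran from 3.23 to 6.46 CPM in input (median 5.05) and from 56.6 to 99.8 CPM in TRAP (median 68.3), again without overlap. Its log2 fold change was 3.82 ± 0.13 (edgeR adjusted p 1.63e-13).

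Siglece was at 0.802 to 1.85 CPM in input (median 1.61) and 22.7 to 34.96 CPM in TRAP (median 26.9), with a log2 fold change of 4.29 ± 0.17 (edgeR adjusted p 7.22e-13). The 2 fractions did not overlap, and the spread in TRAP was narrow beside that of Cd22. Siglec1 had 0.239, 0.123, 0.955, 0.730, 1.26, 1.07 and 0.902 CPM in the inputs of animals 1 to 7 and 2.49, 4.28, 15.7, 6.61, 13.7, 12.9 and 9.69 CPM in TRAP. Its lowest values in both fractions were those of males 1 and 2. The log2 fold change was 3.64 ± 0.23 (edgeR adjusted p 6.25e-10), resting on 2 to 22.2 estimated counts per input library.

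All 4 of 4 members were thus called higher, where 30.4% of all genes tested were called higher, 28.8% lower and 59.2% in either direction. The filter on low counts asked for 7 libraries at 0.612 CPM or more. For Cd22 6 of 7 inputs reached this level and for Siglec1 5 of 7, against 7 of 7 TRAP libraries for each. Cd22 and Siglec1 were thus tested because of their level in TRAP, which limits the comparison of the 4 with all genes. The median log2 fold change of the 4 members was 4.05 and that of all genes tested was -0.02. Upper quartile scaling and scaling by library size alone shifted the median of all genes to -0.16 and -0.13 and the share of higher among called genes from 51.4% to 34% and 38.3%, while the members stayed between 3.48 and 4.50 under every alternative tried, leave-one-out fits aside.

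**Figure D1:**
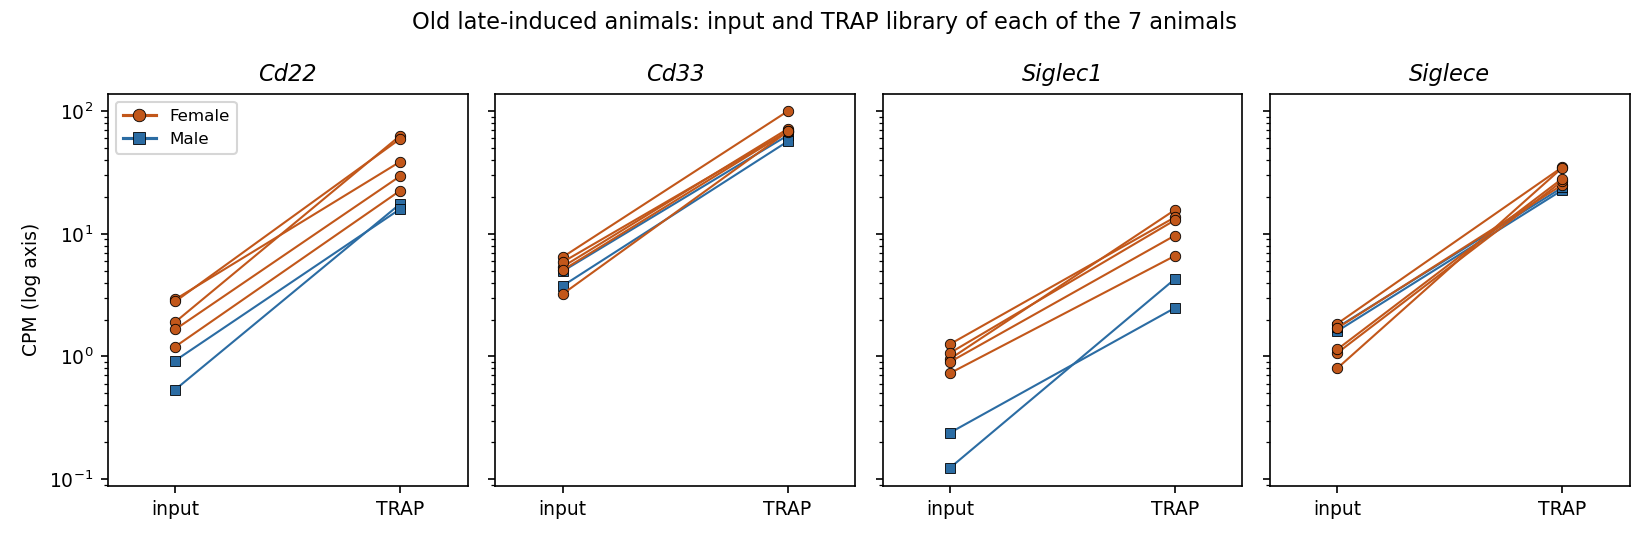
CPM on a log axis of the 4 Siglec transcripts in the input and TRAP library of each of the 7 old late-induced animals, joined by a line per animal, with circles for females and squares for males. Every line rises, and for Cd22 and Siglec1 the TRAP libraries of the 2 males are the lowest (17.6 and 15.9 CPM for Cd22, 2.49 and 4.28 CPM for Siglec1).

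Within animals, the ratio of TRAP to input was above 1 in 7 of 7 animals for each member. The median ratio was 18.7 for Cd22 (range 13.3 to 33.1), 18.9 for Siglece (13.8 to 43.1), 13.5 for Cd33 (11.6 to 21.1) and 10.8 for Siglec1 (9.05 to 34.7). The highest ratios of Siglec1 (male 2, whose input held 2 estimated counts), Siglece (animal 5) and Cd33 (animal 4) came from the animal with the lowest input of that gene, while the highest Cd22 ratio was that of animal 3, with an input of 1.91 CPM. For comparison, Cx3cr1, the gene whose promoter drives the cre, had a median ratio of 17.6, the median of the 17 microglia markers gave 19.9 and that of the 10 border macrophage markers 12.5.

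To ask whether a member was enriched as much as microglial RNA as a whole, the fit was repeated on a scale set by the mean of the 17 microglia markers, on which 0 is a change equal to that of the list. Cd22 was at 0.19 ± 0.20 (SE, edgeR adjusted p 0.364) and Siglece at 0.15 ± 0.19 (0.432), neither of them called different from the list. Cd33 was called lower, at -0.31 ± 0.14 (edgeR adjusted p 0.0323), a call that ended (adjusted p 0.0564 to 0.0746) on leaving out input 1, 3, 6 or 7 or TRAP library 2 or 5. Siglec1 was at -0.49 ± 0.24 (edgeR adjusted p 0.0549), and was called lower at -0.53 with an adjusted p of 0.0318 when the animal was a block, and also without input 2 or 4 or TRAP library 2 or 6. On this scale 98.0% of all genes tested were called lower and 0.171% higher, which follows from a scale set by a strongly enriched list. The 10 border macrophage markers had a median of -0.25 on it, with 1 called lower. A value near 0 is therefore not particular to microglial genes.

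Several cell types other than microglia make these receptors, and their markers were read beside the members. The 7 B cell markers summed to 0.117 to 1.49 CPM in inputs and 4.19 to 5.46 CPM in TRAP, of which Cd79b made up 4.05 to 5.34 CPM. Cd79b was the 1 B cell marker that passed the filter, and it was called higher in TRAP, at 3.91 ± 0.24 (edgeR adjusted p 3.46e-10). It reached at most 0.487 CPM in old late-induced input, so it passed through its level in TRAP, which limits this call. Ms4a1 was at 0 in every TRAP library. Ighm, Ighd and the neutrophil marker Ly6g were listed at 0 in all 36 libraries, and whether their reads were counted at all is not known. The part of B cells in the Cd22 enrichment was not tested. Neutrophil markers summed to 9.44 to 33.4 CPM in inputs and 2.20 to 3.98 CPM in TRAP, and Cxcr2 alone gave 8.21 to 15.3 and 2.06 to 3.34 CPM of these. Border macrophage markers, all 10 of them detected, summed to 24.5 to 56.2 CPM in inputs and 396 to 678 CPM in TRAP, where Stab1 alone gave 285 to 434 CPM. Siglec1 is a known transcript of such macrophages, and the part of these cells in its enrichment was not tested.

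The rest of the family and its partners were read in the same contrast. Siglech, a DAP12-coupled receptor typical of mouse microglia, had a log2 fold change of 4.28 ± 0.11 (edgeR adjusted p 7.19e-15), with 12.8 to 18.6 CPM in old late-induced input and 255 to 396 CPM in TRAP. Siglec5 rose by 3.68 ± 0.25 (edgeR adjusted p 1.52e-09), from 0.842 to 1.66 CPM in input to 8.01 to 33.9 CPM in TRAP. Mag, made by oligodendrocytes, fell by 1.09 ± 0.13 on the log2 scale (edgeR adjusted p 1.59e-06), from 229 to 351 CPM to 101 to 190 CPM. Siglecg, mainly a B cell gene, and Siglec15, known from osteoclasts, did not pass the filter on low counts, reaching at most 0.872 and 0.284 CPM in TRAP.

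**Figure D2:**
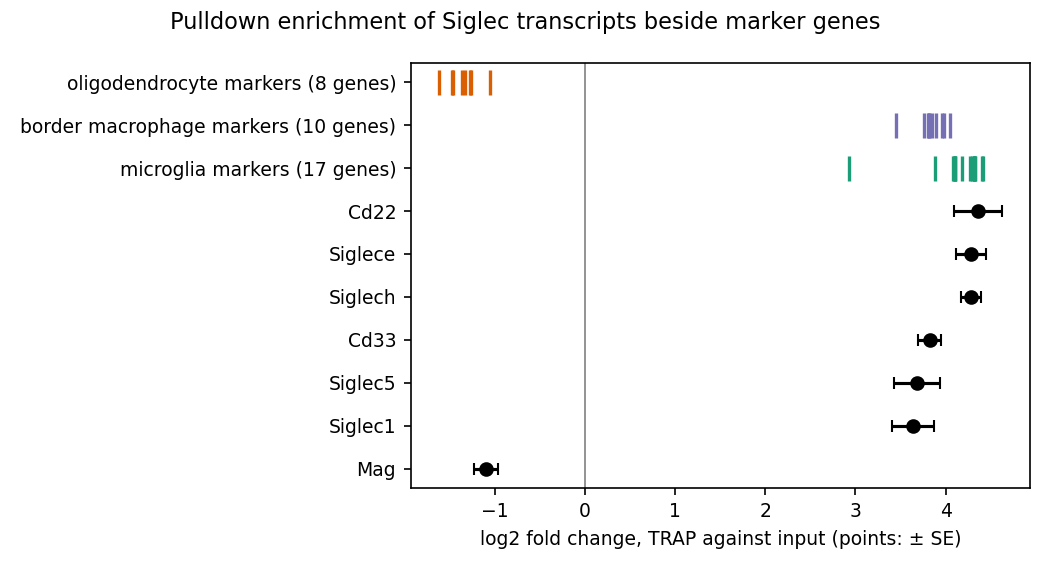
Log2 fold change of TRAP against input for 7 Siglec family transcripts (points, with bars of 1 SE) and for the genes of 3 marker lists (ticks, 1 per gene). Cd22, Siglece, Siglech, Cd33, Siglec5 and Siglec1 lie between 3.64 and 4.36, in the range of the macrophage lists, and Mag at -1.09 lies with the oligodendrocyte markers.

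Levels of different genes were compared per kilobase of exon (CPM per kb, GENCODE M21 basic). In TRAP, Siglech was highest at 90.8 ± 16.3 CPM per kb (SD, n = 7) and Mag next at 55.2 ± 14.2, its highest library just reaching the lowest of Siglech. Siglece followed at 15.2 ± 2.67, Cd33 at 11.6 ± 2.24, Cd22 at 7.22 ± 3.98 and Siglec5 at 6.27 ± 3.14, below Mag without overlap, and each of these 4 overlapped its neighbour among them. Siglec1 was lowest of the members at 1.31 ± 0.703 CPM per kb and overlapped neither Siglec5 above it nor Siglecg and Siglec15 below it, at 0.173 ± 0.114 and 0.0724 ± 0.0886. The exon length used for Cd33, 6085 bases, is longer than the gene's span in the deposited table, so the order of Cd33 and Siglece is not settled by these values. In young input Siglece was at 0.486 ± 0.141 and Cd33 at 0.469 ± 0.119, followed by Siglec5 at 0.180 ± 0.0735, Cd22 at 0.0701 ± 0.0423 and Siglec1 at 0.0513 ± 0.0338 CPM per kb (SD, n = 10), and each overlapped its neighbour in that order. In old late-induced input Cd33 was at 0.815 ± 0.186, Siglece at 0.766 ± 0.219, Siglec5 at 0.463 ± 0.132, Cd22 at 0.350 ± 0.186 and Siglec1 at 0.106 ± 0.0594 CPM per kb (SD, n = 7).

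Age was read in whole-tissue input, first between the old and young early-induced animals, where Cd22 was 4.07 times and Cd33 1.32 times as high in the old. In bulk tissue, more cells of a type and more RNA per cell cannot be told apart. Cd22 ran from 0 to 0.629 CPM in the young (median 0.352, n = 10) and from 0.470 to 2.83 CPM in old early-induced animals (median 1.45, n = 12). Of the old libraries 11 of 12 lay above the highest young one. The log2 fold change was 2.03 ± 0.30 (SE), a fold of 4.07, with an edgeR adjusted p of 1.24e-05, and these are small numbers of reads, at most 10 estimated counts per young library and 8 to 45.1 per old one. Cd22 passed the filter on low counts through the old groups, since 1 of 10 young, 11 of 12 old early-induced and 6 of 7 old late-induced libraries reached the minimum of 0.614 CPM.

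Cd33 ran from 1.79 to 3.63 CPM in the young (median 3.18) and from 3.01 to 4.50 CPM in old early-induced animals (median 3.71), with 6 of 12 old libraries above the highest young one. Its log2 fold change was 0.40 ± 0.13 (edgeR adjusted p 0.0298), and the call ended at an adjusted p of 0.0545 to 0.0627 without young replicate 1, 5 or 7 or old early-induced replicate 2. Siglece was at 0.663 to 1.53 CPM in the young (median 0.815) and 0.646 to 1.96 CPM in the old (median 1.18). Its log2 fold change of 0.41 ± 0.19 was not called (edgeR adjusted p 0.118), but was called at 0.53 (adjusted p 0.0401) without young replicate 7, the highest young library, and was at 0.16 (adjusted p 0.770) in females alone. Siglec1 was at 0 to 0.724 CPM in the young (median 0.330) and 0.117 to 1.43 CPM in the old (median 0.468), and the groups overlapped widely, with a log2 fold change of 0.66 ± 0.42 (edgeR adjusted p 0.258). It passed the filter through 2 of 10 young, 5 of 12 old early-induced and 5 of 7 old late-induced libraries. In this comparison 13% of 14948 genes tested were called higher, 12.6% lower and 25.6% in either direction.

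Between old late-induced and young input, Cd22, Cd33 and Siglece were called higher, against 17% of genes called higher, 17.5% lower and 34.5% in either direction. All young animals were early-induced, so age and age at induction cannot be told apart in this comparison. The same holds wherever old late-induced input is set against young input below. The young libraries are the same in both comparisons, so the 2 sets of values are not independent. Cd22 was at 0.537 to 2.92 CPM in old late-induced animals (median 1.66, n = 7), 6 of 7 above the highest young library, with a log2 fold change of 2.10 ± 0.33 (edgeR adjusted p 1.57e-05). Cd33 was at 3.23 to 6.46 CPM, also 6 of 7 above the highest young library, with 0.79 ± 0.15 (edgeR adjusted p 1.86e-04). Siglece was at 0.802 to 1.85 CPM, 4 of 7 above the highest young library, with 0.67 ± 0.21 (edgeR adjusted p 0.0148). Siglec1, at 0.123 to 1.26 CPM with 5 of 7 above the highest young library, had 0.81 ± 0.47 and was not called (edgeR adjusted p 0.185). In females alone (5 young, 5 old late-induced) Siglece was at 0.39 with an adjusted p of 0.357, and in the old early-induced comparison Cd33 was at 0.54 with an adjusted p of 0.103.

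**Figure D3:**
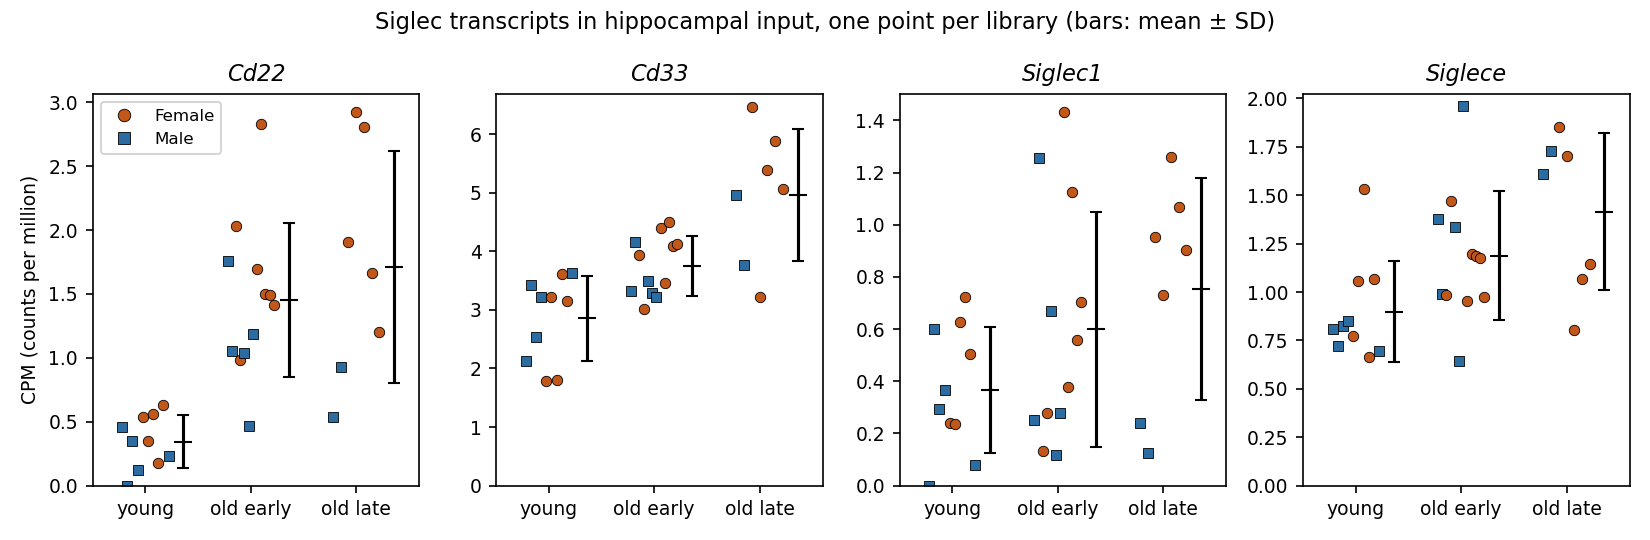
CPM of the 4 Siglec transcripts in the 29 input libraries, 1 point per library (circles female, squares male), with bars for the mean ± SD of each group. Cd22 rises from a young mean of 0.342 CPM to 1.45 and 1.71 CPM in the old groups, while the Siglec1 groups overlap widely.

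Microglial markers were themselves higher in old input. Of the 17 markers, 16 were called higher in the old early-induced and 17 in the old late-induced animals, beside 13% and 17% of all genes tested. Their medians were 0.43 and 0.59 on the log2 scale. The summed level of these markers ran from 622 to 729 CPM in the young, 829.1 to 1004 CPM in the old early-induced and 888 to 1285 CPM in old late-induced animals. On the scale set by this list Cd22 remained higher, by 1.61 ± 0.29 (a fold of 3.06, edgeR adjusted p 9.25e-06) in the old early-induced and 1.51 ± 0.32 (a fold of 2.86, 7.13e-05) in the old late-induced animals. On that scale 1.12% and 1.21% of all genes tested were called higher, and 80.7% and 83.0% lower. Cd33 was at -0.02 ± 0.14 (edgeR adjusted p 0.910) and 0.21 ± 0.15 (0.197), Siglece at -0.01 ± 0.20 (0.967) and 0.11 ± 0.23 (0.655), and Siglec1 at 0.25 ± 0.42 (0.581) and 0.22 ± 0.47 (0.671), none of them called. With the 8 homeostatic markers as the scale Cd33 was called higher in the old late-induced animals, at 0.38 (edgeR adjusted p 0.0187), and Cd22 was at 1.70 and 1.69.

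**Figure D4:**
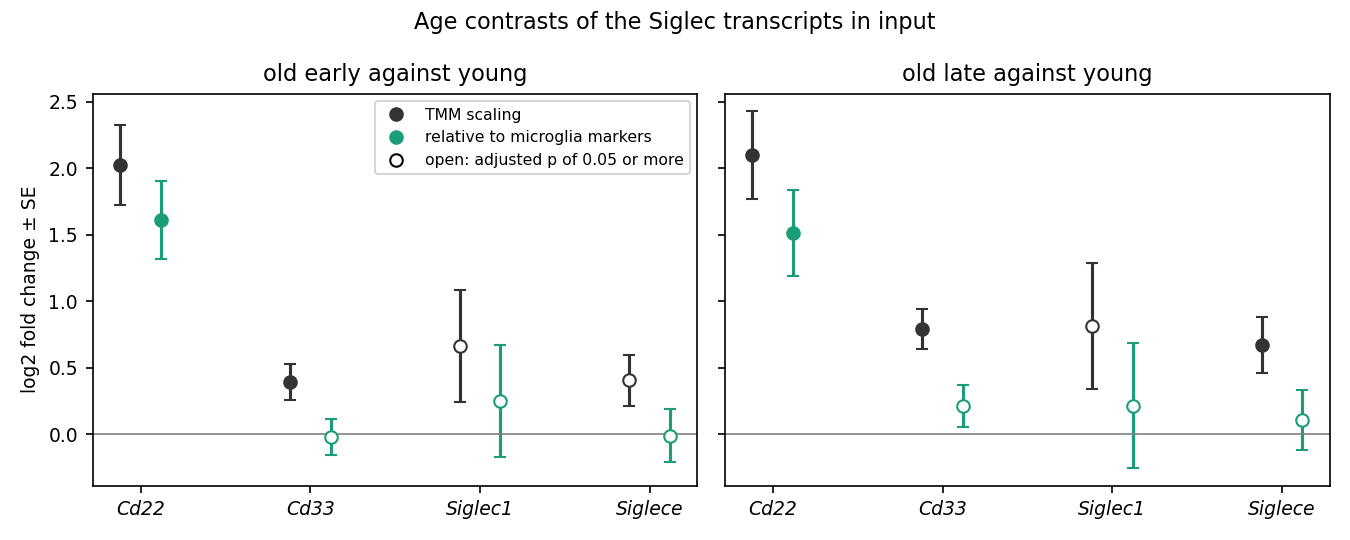
Log2 fold change ± SE of the 4 members in old early-induced (left) and old late-induced (right) against young input, on the usual TMM scale (black) and on the scale of the microglia markers (green), filled where the edgeR adjusted p was under 0.05. Cd22 stays filled on both scales, at 2.03 and 1.61 on the left and 2.10 and 1.51 on the right. The other 3 are open on the marker scale, between -0.02 and 0.25 on the left and 0.11 and 0.22 on the right. Siglec1 has the widest bars there, with an SE of 0.42 and 0.47.

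Markers of other cells were followed across the same groups. Among all genes tested, 13% were called higher and 12.6% lower in the old early-induced animals. In the old late-induced animals these shares were 17% and 17.5%. None of the 7 B cell markers passed the filter in inputs, and their sum ran from 0.173 to 0.697 CPM in the young, 0.117 to 1.49 CPM in the old early-induced and 0.239 to 1.03 CPM in the old late-induced animals. Cd79a alone reached 1.19 CPM in the old early-induced group, and the part of B cells in the Cd22 values was not tested. None of 9 border macrophage markers tested was called in the old early-induced animals, and 1 was called higher and 1 lower in the old late-induced animals. Interferon-induced genes were called higher in 10 of 13 tested in each comparison, with medians of 0.80 and 0.85. Siglec1 is itself known as interferon-inducible, and the part of these genes in its values was not tested. Of 3 neutrophil markers tested, 1 was called higher in the old early-induced and 0 in the old late-induced animals, of 2 monocyte markers 0 in both, and the 1 T cell marker tested was called only in the old early-induced animals, at 0.94 against 0.98 in the others, a difference not tested. Oligodendrocyte markers were higher in 6 and 7 of 8, red cell markers in 1 and 3 of 3, astrocyte markers in 3 and 3 of 6 and endothelial markers in 1 and 1 of 6, and of 6 neuron markers 1 was higher in the first and 2 were lower in the second.

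The 3 other family members tested were called higher in both comparisons of old with young input, where 13% and 17% of all genes were. Siglecg and Siglec15 did not pass the filter on low counts in inputs. Siglec5 had log2 fold changes of 1.13 ± 0.24 (edgeR adjusted p 7.99e-04) and 1.32 ± 0.27 (3.19e-04), and on the microglial scale it remained higher, at 0.72 ± 0.24 (0.00671) and 0.73 ± 0.27 (0.0122). It ran from 0.238 to 0.836 CPM in the young, 0.627 to 2.48 CPM in old early-induced and 0.842 to 1.66 CPM in old late-induced animals. The young median of 0.516 CPM was under the filter's minimum of 0.614 CPM and every old library above it. Siglec5 was thus tested through the old groups, and it rests on 4 to 12 estimated counts per young library. Siglech was at 0.29 ± 0.09 (edgeR adjusted p 0.0129) and 0.47 ± 0.10 (4.42e-04), and at -0.13 and -0.10 on the microglial scale, not called. Mag, beside the oligodendrocyte markers above, was at 0.42 ± 0.07 (edgeR adjusted p 3.84e-05) and 0.62 ± 0.08 (7.27e-07).

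Genes that carry Siglec signals inside the cell were read across the same comparisons. Of 7 signalling partners tested, 4 were called higher in the old early-induced and 6 in the old late-induced inputs, where 13% and 17% of all genes were. The largest were Tyrobp, the DAP12 adaptor, at 0.95 ± 0.09 and 1.19 ± 0.10 on the log2 scale, and Ptpn6, the phosphatase SHP-1, at 0.80 ± 0.12 and 1.07 ± 0.13, and both stayed higher on the microglial scale (Tyrobp at 0.53 and 0.60, Ptpn6 at 0.38 and 0.48). On that scale 3 of the 7 were called lower in both comparisons, as were most genes: Ptpn11 (-0.34 and -0.46), which encodes the widely expressed phosphatase SHP-2, Inpp5d (-0.40 and -0.33), which encodes the phosphatase SHIP1, and the kinase Syk (-0.32 and -0.40). The medians of the list there were -0.13 and -0.11, beside -0.41 and -0.56 over all genes. In TRAP 7 of 8 partners were called higher, beside 30.4% of all genes. The largest were Tyrobp at 4.45 ± 0.15, Hcst, which encodes the adaptor DAP10, at 4.43 ± 0.41 and Ptpn6 at 4.20 ± 0.18. Ptpn11 was at -0.01. Hcst did not pass the filter on low counts in the fit of inputs. It was tested in TRAP through its level there, which limits its place among the 7.

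Genes that make, attach and remove sialic acid were called in both directions. Among all genes 59.2% were called in TRAP, 25.6% in the old early-induced and 34.5% in the old late-induced inputs, against 15, 6 and 7 of 19 sialyltransferases and 4, 1 and 1 of 6 synthesis and activation genes, so that the counts with age lie near the background. Of 6 synthesis and activation genes, Nans, the sialic acid synthase, was at 1.08 and Cmas, which activates the sugar, at 0.14 in TRAP, both called higher, and Cmah and Nanp were called lower at -0.26 and -0.21. With age Cmah, the hydroxylase that makes N-glycolylneuraminic acid, was the 1 gene called, lower at -0.43 ± 0.09 (edgeR adjusted p 4.19e-04) and -0.61 ± 0.10 (3.53e-05). Of 19 sialyltransferases tested, 8 were higher and 7 lower in TRAP, led by St3gal6 at 2.58, St8sia6 at 2.56 and St6galnac4 at 1.40 among the higher, and by St8sia1 at -0.68, St6galnac6 at -0.65 and St6galnac3 at -0.46 among the lower. With age 4 were higher and 2 lower in the old early-induced inputs, where St3gal1 was at 0.34 and St8sia6 at -0.56, and 4 higher and 3 lower in the old late-induced inputs, where St3gal6 was at 0.32 and St8sia3 at -0.22. Of the sialidases, which remove sialic acid, lysosomal Neu1 was called higher and Neu4 lower in each of the 3 comparisons, at 0.28 and -1.50 in TRAP, 0.12 and -0.24 in the old early-induced and 0.12 and -0.23 in the old late-induced inputs.

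Age at induction was compared between the old inputs. None of the 4 members was called in edgeR's quasi-likelihood test, where 5 of 14948 genes (0.0334%) were called and 1736 had an unadjusted p under 0.05. Cd22 was at 0.07 ± 0.28 (edgeR adjusted p 0.946), Siglec1 at 0.15 ± 0.43 (0.922), Siglece at 0.27 ± 0.20 (0.629) and Cd33 at 0.40 ± 0.14 (0.269), the last being the 1 member with an unadjusted p under 0.05. With limma voom 0 members were called, and DESeq2 gave no adjusted p for them. Of the old late-induced libraries 5 of 7 were above the highest old early-induced one for Cd33 and 1 of 7 for Cd22. On the microglial scale the members lay between -0.10 and 0.23, none called (16.1% of genes were called in either direction).

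Sex was a covariate of the fits above, and males had lower Cd22 and Siglec1 means than females in each group. Cd22 averaged 0.451 ± 0.182 CPM in young females and 0.234 ± 0.182 CPM in young males (SD, n = 5 each), 1.71 ± 0.588 (n = 7) and 1.10 ± 0.458 CPM (n = 5) in old early-induced, and 2.10 ± 0.743 (n = 5) and 0.731 ± 0.275 CPM (n = 2) in old late-induced females and males. The log2 difference of males from females over the 29 inputs was -0.90 ± 0.25 for Cd22 (edgeR adjusted p 0.213) and -0.86 ± 0.38 for Siglec1 (0.414). Cd33, at -0.08 ± 0.12, and Siglece, at 0.03 ± 0.17, were close to 0. None of the 4 was called, where 26 of 14948 genes (0.174%) were called in all. Of the members 2 had an unadjusted p under 0.05 in edgeR's test, as had 1632 of all genes tested. DESeq2 and limma voom called 0 of the 4 too.

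The same comparison within TRAP, 2 males against 5 females, was made after the values had been seen. Siglec1 averaged 3.39 ± 1.27 CPM in males and 11.7 ± 3.57 CPM in females, Cd22 16.7 ± 1.14 and 42.7 ± 18.0 CPM, and for both genes the sexes did not overlap. How many of all genes separate the sexes in this way was not counted, and with 2 males such separation is easily reached. The log2 differences were -1.75 ± 0.36 (edgeR adjusted p 0.171) and -1.30 ± 0.37 (0.216), not called, with 9 of 14763 genes (0.0610%) called. Without TRAP replicate 7, a female, both were called (edgeR adjusted p 0.0431 and 0.0374), and DESeq2 called Siglec1 at an adjusted p of 1.11e-04. The number of genes called varied widely between these fits, with 364 in DESeq2 and 4 to 226 on leaving out 1 library. Cd33 was at -0.28 ± 0.15 and Siglece at -0.32 ± 0.14, not called. Beside them the 10 border macrophage markers had a median of -0.70, all of them lower in males (-1.53 to -0.19), and a median of -0.46 on the microglial scale. The 14 interferon-induced genes had a median of -0.80 and the 17 microglia markers one of -0.29. None of these 3 lists had a gene called, and their part in the Siglec1 and Cd22 values was not tested.

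By the rule of highest Pearson correlation over the 29 inputs after removing group means, the genes most like Cd22 among 13937 were Thg1l (r 0.707), Bend7 (0.688) and Cdt1 (0.677). Those for Cd33 were Iglon5 (0.680), Tmem62 (0.657) and Tcirg1 (0.650), those for Siglec1 Ehd4 (0.722), Gtpbp2 (0.719) and Socs3 (0.707), and those for Siglece Dut (0.704), Ino80c (0.619) and Hsdl1 (0.603). The points share libraries and depth, and the members average only 0.556 to 3.73 CPM in input, so these values describe and rank, no more. Between members the same correlation ran from -0.38 (Cd33 with Siglece) to 0.41 (Cd33 with Siglec1).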

How the data were processed

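Input and TRAP fractions of hippocampal polyA RNA were sequenced. The values are estimated counts, deposited by the authors in 1 table with library columns marked raw per the file headers. Of its nonzero values, 77.4% were not whole. The submitters' processing notes name build mm10 and DESeq2, while aligner, counter and strand handling are not given in the sources used here. Groups, sex and animal came from the labels.

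Counts were rounded and tested with edgeR 4.0.16 in R 4.3.3 (filterByExpr, minimum count 10, TMM, glmQLFit and glmQLFTest, sex as covariate). A gene was called where its p, adjusted by Benjamini-Hochberg over all genes tested, was under 0.05. TRAP against input used 14 libraries, and the contrasts among inputs came from a joint fit of all 29. For the microglial scale, library sizes were multiplied by 2 to the mean log2 CPM of 17 markers. CPM used TMM over all 36 libraries. Correlations were taken on log2 CPM (prior count 2), among genes averaging at least 1 CPM. The code was tested on simulated counts.

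The members and lists were chosen with earlier results of these data known. Named genes were the members, all other Siglecs, Cx3cr1, up to 3 called genes per pathway list and direction, and 3 most alike genes per member. Same-numbered TRAP and input libraries came from 1 animal by the labels, and in 7 of 7 pairs their deviations from group means correlated (0.37 to 0.51, other animals median -0.11). Alternatives were other filters and scalings, the tools DESeq2 1.42.0 and voom of limma 3.58.1, no sex term, females only, fewer groups, an animal block, homeostatic markers, and each library left out. P-values of the contrasts among inputs, and of sex in TRAP, measure the spread between animals. The main fit of TRAP against input had no animal term. Its p-values therefore treat the input and TRAP library of 1 animal as independent, although these libraries correlated. With the animal as a block all members stayed called higher in TRAP, and Siglec1 became called lower relative to the microglia markers. Counting error is large for low values.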

Additional observations from a re-analysis of the deposited data

Results flagged for a closer look

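Of 16 sets of member values tested for a library far from the others of its group, in groups of 7 to 10, 5 had one. Chance would give 0.8 if the sets were independent and normally distributed. The ratios reuse the CPM values of other sets, so this number is only a rough guide. The group of 12 libraries was not tested, since the critical values used cover groups of up to 10. Cd33 in TRAP replicate 3 was at 99.8 CPM, with the next library at 71.5 CPM. Siglece in young replicate 7 was at 1.53 CPM, with the next at 1.07 CPM. The other 3 were ratios of TRAP to input: Cd33 in animal 4 at 21.1 (next 15.5), Siglec1 in animal 2 at 34.7 (next 16.4) and Siglece in animal 5 at 43.1 (next 25.2). Each of these 3 ratios belongs to the animal with the lowest input CPM of that gene.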

How the results depend on the processing

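The enrichment of the 4 members in TRAP and the rise of Cd22 in both old groups, on both scales, kept direction and call under every alternative that gave a value and every left-out library. With a minimum count of 30, Cd22, Siglec1 and Siglece were not tested in inputs, and DESeq2 gave no adjusted p for Siglec1 in the old early or for any member in the induction contrast. Siglec1 also had no value in the 2 fits of early-induced inputs alone. With an animal as the replicate block, Siglec1 relative to the microglia markers was called at -0.53, and the block changed no other member's call. In females alone 1198, 2787 and 182 genes were called in the old early, old late and induction contrasts, and Cd33 in the old early (0.54) and Siglece in the old late contrast (0.39) lost their calls, while Siglece in the old early contrast was at 0.16. The induction contrast called 58 genes in DESeq2 and 0 with only the compared groups, and the sex contrast 64 in DESeq2 and 12 in early-induced inputs, where Siglece was at -0.073. Sex in TRAP called 364 genes in DESeq2, with Siglec1 at -1.75, and 5 in voom. With homeostatic markers as the scale, Cd33 and Siglece in the old early contrast were at 0.076 and 0.080, Cd33 in the old late contrast at 0.38 (called), and in the induction contrast Siglec1 at 0.051 and 183 genes called. The cause was not tested in any of these.

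Leaving out 1 library at a time gave these ranges. Old early against young: Cd33 0.33 to 0.44, Siglec1 0.39 to 0.85 and Siglece 0.31 to 0.53. Old late against old early: Cd22 -0.060 to 0.19, Siglec1 0.015 to 0.34 and 0 to 164 genes. Sex in inputs: Siglece -0.066 to 0.099 and 17 to 32 genes. Sex in TRAP: Cd22 -1.46 to -1.12, Siglec1 -2.19 to -1.40 and 4 to 226 genes. On the microglial scale, in TRAP: Cd33 -0.40 to -0.26 and Siglec1 -0.57 to -0.38. On that scale, old early against young: Cd33 -0.084 to 0.043, Siglec1 -0.026 to 0.43 and Siglece -0.11 to 0.11. On that scale, old late against young: Siglece 0.0093 to 0.24. On that scale, old late against old early: Cd22 -0.24 to 0.027, Siglec1 -0.18 to 0.17 and 250 to 6515 genes. Siglec1 rests on at most 27 estimated counts per input, which limits the precision of its age differences.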
